A study of Homo sapiens with 4 samples.

Results

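The 10 genes described here, GREB1, TFF1, PDZK1, CXCL12, CA12, IGFBP4, RET, STC2, SIAH2 and SUSD3, are widely used readouts of estrogen receptor activity in breast cancer cells, and they were followed in T47D cells given a progestin. Each gene was taken from the RNA-seq transcript tables by its symbol, which gave 10 of 23287 gene symbols and 19 of 41138 transcripts, all listed in both libraries. T47D, a luminal breast cancer line of human origin, expresses the progesterone receptor (PR), and R5020 is a synthetic progestin. For RNA-seq, cells spent the last 24 h before harvest in charcoal-stripped serum and were exposed to 10 nM R5020 or the vehicle (EtOH) for 3 h, with 1 library per condition. For the PR ChIP-seq library the time in stripped serum up to harvest was 3 days and the exposure to 10 nM R5020 was 1 h. Stripped serum removes steroids from both RNA-seq groups, no estrogen was among the labelled treatments, and the line stands for 1 tumor.

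The estrogen receptor (ESR1) is a ligand-activated transcription factor that binds estrogen response elements (EREs), often beside the pioneer factor FOXA1 and with GATA3, and recruits coactivators to its target genes. PR is itself an estrogen-induced gene in luminal breast cells, and it binds progesterone response elements (PREs), a DNA motif shared with the androgen and glucocorticoid receptors. Estrogen-induced genes are therefore read by clinicians and biologists as a sign of a working estrogen receptor, and several are also known as targets of other steroid receptors.

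GREB1, CXCL12 and SIAH2 rose past 1.5-fold in R5020-treated cells, STC2 and TFF1 fell past 1.5-fold, and CA12 and IGFBP4 stayed within it. PDZK1, RET and SUSD3 lay below an FPKM of 1 in both libraries. The set therefore moved in both directions after 3 h of progestin. FPKM counts fragments relative to transcript length and library size, and was summed here over the transcripts of a gene. A gene was retained when its FPKM was at least 1 in at least 1 library, its difference was log2((R5020 FPKM + 1) / (EtOH FPKM + 1)), and 1.5-fold was applied to that difference. With 1 library per condition there is no spread between cultures, no test was made, and every difference compares these libraries.

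Of the 7 retained genes, 3 (42.9%) were higher and 2 (28.6%) were lower in R5020 past 1.5-fold. Among all 11010 retained genes 7.65% were higher and 4.10% were lower by the same rule. The median log2 difference was 0.46 over the 7 retained genes and 0.35 over all 10, against 0.01 over all retained genes. Without regard to the filter, 6 of the 10 genes had the higher FPKM in R5020 and 4 in EtOH. TFF1 passed the filter through its EtOH value alone. With so few genes these shares are a description of the set.

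**Figure D1:**
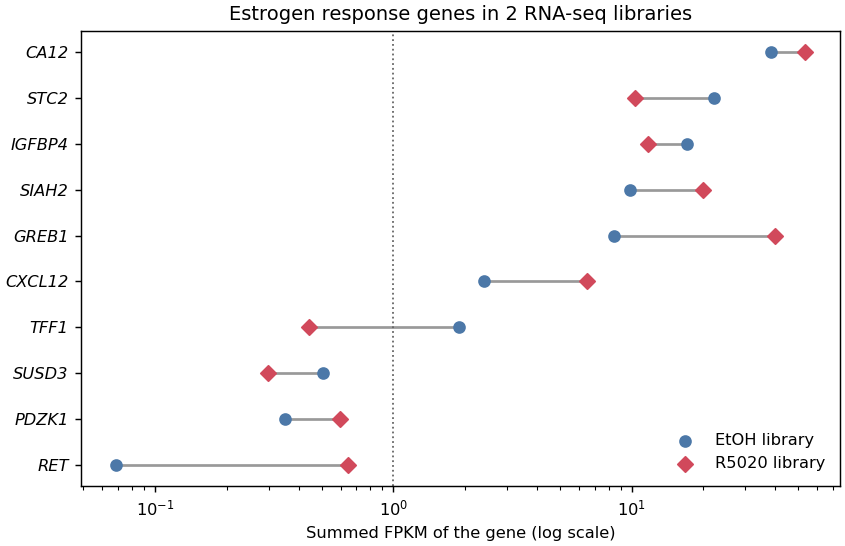
Summed FPKM (log scale) of the 10 genes in the EtOH library (circles) and the R5020 library (diamonds), with a dotted line at an FPKM of 1. GREB1 and CXCL12 sit further right in R5020, STC2 and TFF1 further left, and PDZK1, RET and SUSD3 lie left of the line in both libraries.

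The coverage deposited with the transcripts corresponded to 35151493 reads of 50 nt in the EtOH library and 36203604 in the R5020 library. The study states higher counts of unique paired-end reads, with the EtOH library ahead, so these equivalents are not its read counts. The 8 luminal epithelial markers measured in both libraries had FPKM values from 10.9 to 608, and KRT8 and KRT18 were measured in R5020 alone, since their estimate failed in EtOH. Of 10 markers of stromal, immune, endothelial and basal cells, 7 were below an FPKM of 1 in both libraries and COL3A1 was listed at 0. The other three were COL1A1 (5.12 in EtOH and 3.31 in R5020), LUM (2.54 and 1.66) and ACTA2 (1.93 and 1.35). The summed FPKM of these 10 was 10.3 in EtOH and 7.53 in R5020, that of the 8 luminal markers was 1681 and 1318, and their part in the results was not tested. In bulk RNA, fewer cells of a kind and less RNA per cell cannot be told apart.

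The nuclear and signaling members are GREB1, a coactivator of the estrogen receptor, and SIAH2, an E3 ubiquitin ligase. GREB1 (chr2:11674242-11782912, plus strand, hg19) was at 8.44 FPKM in EtOH- and 39.9 FPKM in R5020-treated cells. That is a 4.73-fold rise and a log2 difference of 2.12, larger than that of 99.3% of retained genes. GREB1 moved from rank 3565 to rank 609 among all gene symbols by FPKM, where rank 1 is the highest level, and its coverage corresponded to 6139 reads in EtOH and 29909 in R5020.

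The whole GREB1 signal was assigned to the full-length transcript NM_014668, with a deposited 95% interval of 8.13 to 8.86 in EtOH and 39.6 to 41.3 in R5020. These intervals describe the estimate within 1 library and did not overlap. NM_033090 and NM_148903, each with a start site of its own, were listed at 0 in both libraries. The paper instead names GREB1 among genes with more than 1 variant expressed in vehicle-treated cells, without showing the values.

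SIAH2 (chr3:150458910-150481263, minus strand) was at 9.87 FPKM in EtOH- and 19.9 FPKM in R5020-treated cells, a 2.01-fold rise with a log2 difference of 0.94. Its coverage corresponded to 2507 and 4820 reads. The deposited FPKM of its transcript NM_005067 lay above its own interval in both libraries, which ran from 4.49 to 5.50 in EtOH and from 9.25 to 10.9 in R5020. The intervals themselves differed in the same direction and did not overlap. The relative SIAH1, an E3 ligase of the same family, was at 3.93 FPKM in EtOH- and 5.05 FPKM in R5020-treated cells, within 1.5-fold.

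Among the secreted members, CXCL12, the chemokine ligand of the receptor CXCR4, was higher in R5020, and STC2, a stanniocalcin glycoprotein, and TFF1, a trefoil peptide of mucosal epithelia, were lower. CXCL12 (chr10:44865605-44880545, minus strand) was at 2.41 FPKM in EtOH- and 6.51 FPKM in R5020-treated cells, a 2.71-fold rise with a log2 difference of 1.14. Both of its detected transcripts, which start at the same site, rose. NM_199168 was at 1.76 FPKM in EtOH- and 4.38 FPKM in R5020-treated cells, and NM_000609 had 0.648 and 2.13. Neither pair of intervals overlapped, and NM_001033886 and NM_001178134 were listed at 0 in both libraries.

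STC2 (chr5:172741726-172756506, minus strand) was at 22.2 FPKM in EtOH- and 10.3 FPKM in R5020-treated cells, 2.16-fold lower in R5020. Its log2 difference was -1.04, and 1.22% of retained genes had a lower one. The interval of its only transcript, NM_003714, ran from 21.5 to 22.8 in EtOH and from 9.82 to 10.7 in R5020, with 11262 reads in EtOH and 5096 in R5020. Among the genes of the set that fell, STC2 is thus the one with deep coverage. Its paralog STC1 was at 0.435 FPKM in EtOH- and 0.246 FPKM in R5020-treated cells and was not retained.

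TFF1 (chr21:43782391-43786644, minus strand) was at 1.88 FPKM in EtOH- and 0.442 FPKM in R5020-treated cells, 4.25-fold lower, with a log2 difference of -0.998. The signal was thin, at a coverage equivalent to 87 reads in EtOH and 21 in R5020. The deposited FPKM in EtOH lay above its own interval of 0.455 to 1.41, which overlapped the interval of 0.0429 to 0.60 in R5020. With interval midpoints in place of FPKM the log2 difference of TFF1 was -0.55, inside 1.5-fold. The related trefoil gene TFF3, in the same cluster, fell from 2.69 to 1.33, a log2 difference of -0.67.

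IGFBP4 (chr17:38599676-38613982, plus strand), which binds and restrains insulin-like growth factors, was at 17.04 FPKM in EtOH- and 11.8 FPKM in R5020-treated cells. The EtOH value was 1.45 times the R5020 value, just inside the threshold, and the log2 difference was -0.50. The FPKM lay above its own interval in both libraries (10.9 to 12.7 in EtOH and 7.45 to 9.10 in R5020), and the intervals did not overlap. Other genes of that axis went both ways. IGF1R, the receptor, rose from 6.64 to 15.3 and IGFBP5 fell from 158 to 101. IGFBP2 had 18.9 in EtOH and 18.7 in R5020, and the ligands IGF1 and IGF2 were below an FPKM of 1.

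CA12, a carbonic anhydrase of the cell surface, was the most abundant gene of the set in both libraries. CA12 (chr15:63615730-63674075, minus strand) summed to 38.5 FPKM in EtOH-treated and 53.4 FPKM in R5020-treated cells, a ratio of 1.39 and a log2 difference of 0.46 that stayed within 1.5-fold. Beneath this sum its transcripts went in opposite directions. NM_001218 rose from 18.7 (interval 17.7 to 19.7) to 45.4 (44.3 to 47.2), a log2 difference of 1.23. NM_206925 fell from 19.8 (18.8 to 20.9) to 8.04 (7.37 to 8.71), a log2 difference of -1.20. The share of NM_001218 in the CA12 signal was 48.6% in EtOH and 85.0% in R5020. With the highest transcript of each library in place of the sum, the log2 difference of CA12 was 1.16, past 1.5-fold. That value sets NM_206925 in EtOH against NM_001218 in R5020, so it is not the change of either transcript.

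Both CA12 transcripts start at the same site and differ in length by 33 nt. That is the length of coding exon 9 of the longer GENCODE transcript of CA12 (chr15:63620297-63620329), which encodes 11 residues and is absent from the shorter one. Only reads on that exon or across its junctions tell the transcripts apart, so the split is the estimate of the Cufflinks program and rests on a short stretch. The exon is shown because the difference between the CA12 transcripts turns on it, with 20 intron bases on each side. Capitals mark the exon.
CA12 exon 9, chr15:63620277-63620349 (hg19, minus strand): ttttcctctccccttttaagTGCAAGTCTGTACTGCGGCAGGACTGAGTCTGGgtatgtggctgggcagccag

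**Figure D2:**
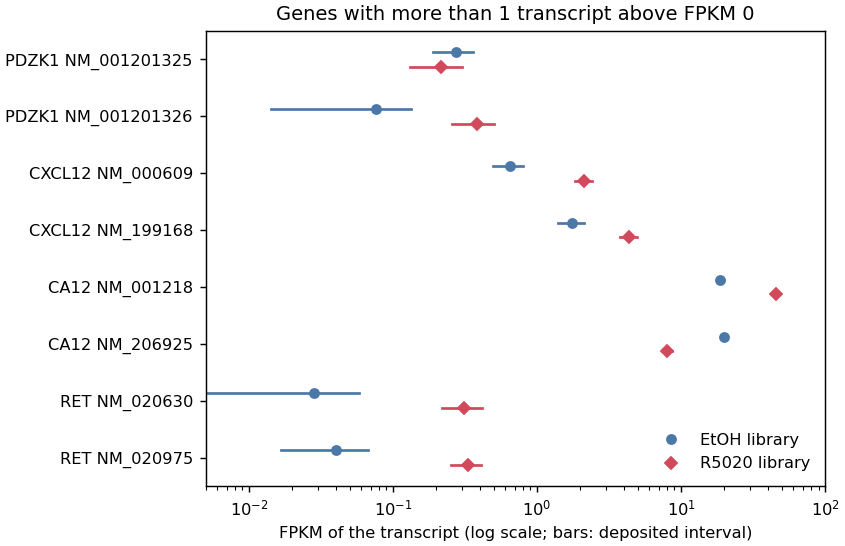
FPKM (log scale) of the 8 transcripts of genes with more than 1 transcript above 0, in the EtOH library (circles) and the R5020 library (diamonds), with bars for the deposited interval. The CA12 transcripts lie together in EtOH and apart in R5020, while both transcripts of CXCL12 and of RET lie further right in R5020.

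RET, the receptor tyrosine kinase for the GDNF family of ligands, was listed close to 0 in EtOH. RET (chr10:43572517-43625797, plus strand) was at 0.0685 FPKM in EtOH- and 0.644 FPKM in R5020-treated cells, with coverage equivalent to 31 and 289 reads. The R5020 value was 9.41 times the EtOH value, the highest ratio of the 10, with a log2 difference of 0.62, but RET did not reach an FPKM of 1 and is not counted among the genes that changed. Its transcripts gave similar values. NM_020975 was at 0.0403 FPKM in EtOH- and 0.332 FPKM in R5020-treated cells, and NM_020630 had 0.0281 and 0.313. The intervals did not overlap for either transcript.

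The ligands and coreceptors of RET that were followed were also below an FPKM of 1. ARTN had 0.203 in EtOH and 0.708 in R5020, and GDNF and NRTN were at most 0.178 in either library. GFRA1 had 0.0618 and 0.0621, GFRA3 had 0 and 0.0355, and GFRA2 was listed at 0. CXCR4, the receptor of CXCL12, was at 0.561 FPKM in EtOH- and 1.53 FPKM in R5020-treated cells, a rise of 0.69 on the log2 scale, while the other CXCL12 receptor, CXCR7, stayed below 1 (0.196 and 0.218).

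PDZK1, a PDZ-domain scaffold for membrane proteins, and SUSD3, a sushi-domain protein of the cell surface, were also below the filter. PDZK1 (chr1:145727666-145764206, plus strand) was at 0.350 FPKM in EtOH- and 0.598 FPKM in R5020-treated cells. The EtOH signal was assigned mainly to NM_001201325 (0.274 in EtOH and 0.214 in R5020, with overlapping intervals) and the R5020 signal mainly to NM_001201326 (0.0768 and 0.384, without overlap). At 59 and 92 read equivalents for the gene, this split is thinly supported. The scaffold SLC9A3R1, which like PDZK1 carries PDZ domains, was at 48.7 FPKM in EtOH- and 39.5 FPKM in R5020-treated cells.

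SUSD3 (chr9:95820989-95847415, plus strand) was at 0.506 FPKM in EtOH- and 0.298 FPKM in R5020-treated cells, with 58 and 29 read equivalents and overlapping intervals. With a pseudocount of 0.1 in place of 1, PDZK1 gave a log2 difference of 0.63 and SUSD3 one of -0.61, both past 1.5-fold in size.

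**Figure D3:**
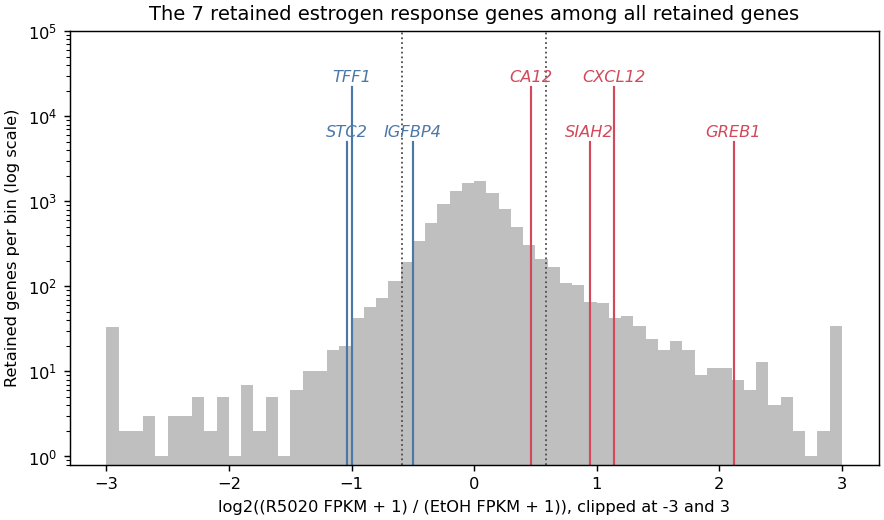
Number of retained genes (log scale) by log2 difference between R5020 and EtOH in bins, clipped at -3 and 3, with the 7 retained genes of the set as labeled lines (red where the value is above 0, blue where it is below) and dotted lines at 1.5-fold. GREB1, CXCL12 and SIAH2 lie to the right of the dotted lines, STC2 and TFF1 to the left, and CA12 and IGFBP4 between them.

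PR binding sites were set beside the genes. The PR ChIP-seq library held 11181 sites, and a gene counted as having a site if one lay inside its transcribed extent or began no more than 50 kb away. Of the 10 genes, 7 had at least 1 site (70%, Wilson 95% interval 39.7 to 89.2), and 52.7% of all retained genes did. Among the 7 retained genes 5 had a site. The wide interval holds the share over all retained genes, so no difference was detectable with 10 genes. Such intervals reflect counting error alone, as if genes were independent.

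The 7 genes had 19 sites in all, 9 inside a gene, 6 upstream and 4 downstream. Sites lay by their midpoint in introns in 13 cases, between genes in 4 and in coding exons in 2. The score of a site is 10 times the negative log10 of the p-value that MACS gave it. Scores ran from 52.04 to 137.73 with a median of 74.5, equal to the median over all sites, where the highest score was 1965. None of the 19 midpoints lay within 1 kb of the start of the gene in the deposited transcripts, and 4 lay within 5 kb. Counted from the outermost GENCODE start, 2 midpoints lay within 1 kb, those at CXCL12 and STC2.

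**Figure D4:**
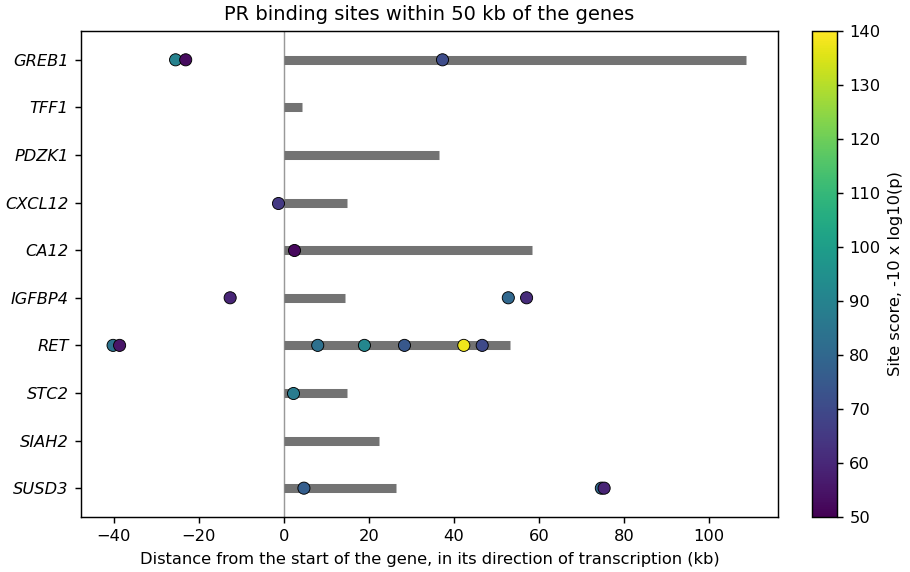
PR binding sites (points, colored by score) by distance of the midpoint from the start of each gene, in its direction of transcription (kb), with gray bars for the extent of the gene. RET carries 7 sites, GREB1, IGFBP4 and SUSD3 carry 3 each, CXCL12, CA12 and STC2 carry 1, and TFF1, PDZK1 and SIAH2 carry none.

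Of the genes that rose, GREB1 and CXCL12 had sites within 50 kb and SIAH2 had none, its nearest site lying 222 kb away. Of the genes that fell, STC2 had a site and TFF1 had none, with the nearest 76.05 kb away. PDZK1 had its nearest site at 172 kb. Sites were thus present and absent on both sides of the response. Over all retained genes a site was present for 61.4% of those higher in R5020 (58.1 to 64.6), for 61.0% of those lower (56.4 to 65.4) and for 51.5% of those within 1.5-fold (50.5 to 52.5).

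At GREB1 the site with the highest score, 89.39 (chr2:11648531-11648970), lay 25.5 kb upstream of the deposited start. A second site (chr2:11650894-11651364, score 52.57) lay 23.1 kb upstream, and the other (chr2:11711295-11711779, score 70.72) lay 37.3 kb inside the gene. GENCODE extends GREB1 upstream to position 11622467, so that all GREB1 sites fall in its introns. The CXCL12 site (chr10:44881714-44882240, score 64.87) had its midpoint 1.43 kb upstream of the start of the deposited transcripts and outside any GENCODE protein-coding gene. GENCODE places the outermost start of CXCL12 at position 44881941, inside this site and 36 bp from its midpoint. The STC2 site (chr5:172754158-172754778, score 87.12) lay in an intron, 2.04 kb past the deposited start and 982 bp past the GENCODE start, and the CA12 site (chr15:63671428-63671859, score 52.04) lay in an intron 2.43 kb past the start.

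RET, with the lowest FPKM in EtOH, had the most sites of the set. Its 7 sites ran from 40.2 kb upstream to 46.6 kb inside the gene. The site with the highest score of all 19, 137.73 (chr10:43614390-43615243), lay 42.3 kb past the start and ranked 602 among all sites, and the next by score within RET, 91.76 (chr10:43591218-43591678), lay 18.9 kb past the start. Having 7 or more sites was true of 3.36% of all gene symbols and of 4.17% of retained genes, which leave out RET. It was true of 77 (2.82%) of the 2728 genes of 40 to 70 kb, the length class of RET (53.3 kb). The median in that class was 0 sites. RET was picked out for its count of sites after the values were seen.

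At IGFBP4 1 site lay upstream (chr17:38586668-38587370, score 59.47, 12.7 kb from the start) and the other two lay in TNS4, the next gene downstream, whose own FPKM was 0.767 in EtOH and 0.194 in R5020. At SUSD3 1 site lay in its intron (chr9:95825410-95825961, score 76.54, 4.70 kb past the start) and the other two lay in NINJ1, whose FPKM was 7.20 in EtOH and 8.65 in R5020. Which gene a site acts on was not measured.

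The 4 sites with the highest scores among those of genes past 1.5-fold are shown, so that their sequence can be read beside the response, together with a site of RET, the gene with the most sites. Each line gives 120 or 300 bases around the midpoint of a site, and capitals mark a PRE half-site (TGTNCT) or an ERE half-site (GGTCA) on either strand.
GREB1, 25.5 kb upstream, chr2:11648691-11648810 (hg19, plus strand): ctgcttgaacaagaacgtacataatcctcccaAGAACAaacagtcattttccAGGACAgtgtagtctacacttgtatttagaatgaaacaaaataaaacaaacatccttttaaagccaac
GREB1, 37.3 kb inside, chr2:11711477-11711596 (hg19, plus strand): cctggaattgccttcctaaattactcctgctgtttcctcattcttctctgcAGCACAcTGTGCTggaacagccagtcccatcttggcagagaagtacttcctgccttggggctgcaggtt
CXCL12, 1.43 kb upstream, chr10:44881827-44882126 (hg19, plus strand): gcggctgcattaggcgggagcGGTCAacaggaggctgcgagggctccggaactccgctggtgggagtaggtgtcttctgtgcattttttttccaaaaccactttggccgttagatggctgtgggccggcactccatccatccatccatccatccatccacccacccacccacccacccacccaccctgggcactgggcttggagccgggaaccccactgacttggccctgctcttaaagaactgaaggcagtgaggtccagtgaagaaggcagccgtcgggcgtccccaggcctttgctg
STC2, 2.04 kb inside, chr5:172754318-172754617 (hg19, plus strand): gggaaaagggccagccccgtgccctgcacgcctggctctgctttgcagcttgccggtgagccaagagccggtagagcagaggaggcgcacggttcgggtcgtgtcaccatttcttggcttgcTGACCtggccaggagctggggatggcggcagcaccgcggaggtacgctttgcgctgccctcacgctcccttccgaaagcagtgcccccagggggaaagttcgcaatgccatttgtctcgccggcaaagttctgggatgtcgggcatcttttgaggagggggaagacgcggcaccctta
RET, 18.9 kb inside, chr10:43591298-43591597 (hg19, plus strand): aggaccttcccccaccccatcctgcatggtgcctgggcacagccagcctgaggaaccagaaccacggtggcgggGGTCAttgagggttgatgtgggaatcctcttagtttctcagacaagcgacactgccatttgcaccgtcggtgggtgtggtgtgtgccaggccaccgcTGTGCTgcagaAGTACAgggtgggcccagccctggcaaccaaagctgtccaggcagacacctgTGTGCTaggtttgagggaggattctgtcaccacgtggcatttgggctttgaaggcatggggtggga

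In the GREB1 site inside the gene the PRE half-sites face each other with 1 base between them, and in the upstream site both lie in the same orientation. The CXCL12 site held 1 ERE half-site and no PRE half-site in its 300 central bases, and its center is a run of 4-base repeats. The STC2 site held 1 ERE half-site and no PRE half-site, and the RET site held 3 PRE half-sites and 1 ERE half-site. That RET site was chosen for its half-sites after they were seen, and the RET site with the highest score (137.73) held 0 PRE half-sites. A match is a description of letters and no evidence of which factor binds.

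Within the central 300 bases the full PRE (GNACA and TGTNC separated by 3 bases) matched 0 of the 19 sites, 1.89% of all sites and 0.492% of windows 5 kb away. The full ERE (GGTCA and TGACC separated by 3 bases) matched 0 of 19, 0.0805% of all sites and 0.125% of the windows 5 kb away. With 1 mismatch allowed in the PRE, 3 of 19 (15.8%) matched, against 15.4% of all sites and 9.53% of windows 5 kb away. Of these 3 sites, 1 lay inside GREB1 and 1 inside RET. The other was counted for SUSD3 but lay in an intron of NINJ1, 48.0 kb downstream of SUSD3.

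A PRE half-site was present in 13 of 19 sites (68.4%), in 52.5% of all sites and in 51.1% of windows 5 kb away. An ERE half-site was present in 11 (57.9%), 45.7% and 44.1%, respectively. In the central 100 bases alone, 6 of the 19 sites held a PRE half-site and 3 held an ERE half-site. The forkhead letters TGTTTAC matched 1 site, the same one in the NINJ1 intron downstream of SUSD3, and 2.58% of all sites. The GATA letters AGATAA matched 1 site, at CA12, and 7.97% of all sites. Half-sites, being short, are frequent in any window, and both strands were searched. A full ERE holds 2 ERE half-sites and a full PRE may hold PRE half-sites.

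Promoters of 8 of the 10 genes, from 250 bases before to 50 after the start, were matched in the RefSeq promoter table (GRCh38.p14). A PRE half-site was present in those of PDZK1, CXCL12 and IGFBP4, against 41.4% of all 27305 promoters, and an ERE half-site in those of PDZK1, STC2, CXCL12 and CA12, against 37.7%. None held a full PRE or ERE, which 0.388% and 0.0659% of all promoters held.

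The estrogen receptor and the factors it works with were followed as a list of 12 genes. Of its 11 retained members, 6 (54.5%) fell, 1 (9.09%) rose and 4 stayed within 1.5-fold, with a median log2 difference of -0.60. Over all retained genes 4.10% fell and 7.65% rose. FOXA1, the forkhead pioneer factor, fell from 64.3 in EtOH to 14.7 in R5020, a log2 difference of -2.05. GATA3 fell from 253 to 126, and ESR1 itself fell from 17.2 to 10.9, a log2 difference of -0.61. PGR, the gene of PR, fell from 23.7 to 15.3, and both receptor genes were only just past the threshold.

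SPDEF, an ETS factor of luminal cells, fell from 22.9 to 12.2. RARA, the retinoic acid receptor alpha, fell from 5.21 to 2.80. KDM4B, a histone demethylase, rose from 6.31 to 18.3. On the log2 scale FOXA1 alone fell past 2-fold and KDM4B, at 1.40, alone rose past it. GATA3, at -0.998, lay just inside, and only through the pseudocount of 1 in that scale. TFAP2C (15.9 in EtOH and 11.1 in R5020), XBP1 (93.4 and 78.4), NRIP1 (2.87 and 3.41) and NCOA3 (11.4 and 16.3) stayed within 1.5-fold, and ESR2 was not retained. FOXA1, GATA3, ESR1 and PGR are also among the luminal markers above. Of the 11, 9 (81.8%) had a PR site within 50 kb, beside 52.7% of all retained genes. The share was 62.5% of the retained partners and 65.8% of the other retained estrogen response genes described below. No interval was computed for these lists, and no difference was tested.

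Relatives, ligands, receptors and other partners of the set formed a list of 24 genes, of which 8 were retained. IGF1R and CXCR4 rose, TFF3 and IGFBP5 fell, and SLC9A3R1, IGFBP2, SIAH1 and GREB1L stayed within 1.5-fold. That is 25.0% in each direction, beside 7.65% of all retained genes that rose and 4.10% that fell. CXCR4 and GREB1L passed the filter through their R5020 value alone. GREB1L, the paralog of GREB1, was at 0.480 FPKM in EtOH- and 1.06 FPKM in R5020-treated cells. The other carbonic anhydrases followed, CA2 and CA9, were listed at 0 in both libraries.

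A wider list of 144 other genes known to respond to estrogen gave the comparison. Of these, 142 were found by symbol, KRT8 and KRT18 could not be measured in EtOH, and 111 were retained. In R5020 26 (23.4%) rose, 7 (6.31%) fell and 78 stayed within 1.5-fold, with a median log2 difference of 0.06. The share that rose stands beside 7.65% of all retained genes and the share that fell beside 4.10%. Some retained targets passed the filter through 1 library alone. Among those that rose, FRK, SYBU, JAK2, PRSS23 and PMAIP1 passed through R5020 alone. Among those that fell, SEMA3B passed through EtOH alone. The largest rises on the log2 scale were TIPARP, an ADP-ribosyltransferase (4.37 to 29.9), FRK, a tyrosine kinase (0.722 to 8.40), SYBU (0.636 to 7.69), CCND1, encoding cyclin D1 (22.2 to 120.4), and THBS1, encoding thrombospondin 1 (11.3 to 50.7). The largest falls were P2RY2, a nucleotide receptor (4.76 to 1.60), RERG, a Ras-like growth inhibitor (5.71 to 2.37), FAM102A (15.9 to 7.83), HES1, a Notch target repressor (16.9 to 9.05), and SLC7A5, an amino acid transporter (37.2 to 21.03).

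**Figure D5:**
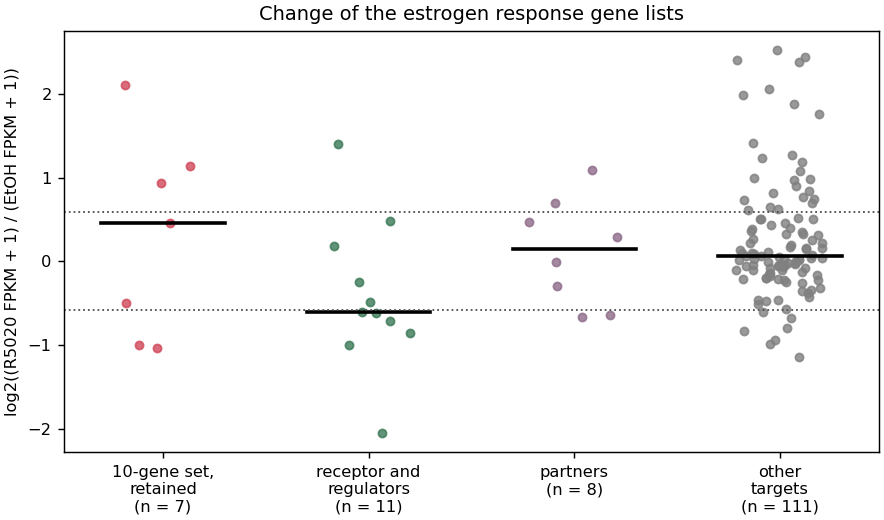
Log2 difference between R5020 and EtOH of the retained genes of each list (points, spread sideways for display), with bars at the list median and dotted lines at 1.5-fold. The points of the 10-gene set lie on both sides of the lines, the median of the receptor and its regulators lies at -0.60 and that of the other targets at 0.06.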

How the data were processed

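Per the labels and the methods of the study, the authors aligned 50-nt paired-end reads to hg19 with TopHat, discarded multi-mapping reads and estimated transcript abundance with Cufflinks. The authors deposited the FPKM of each RefSeq transcript with an interval, a status and a coverage. Which annotation guided Cufflinks is named in more than 1 way in the sources used here. For ChIP-seq the authors aligned reads with Bowtie 1.1.2, called sites with MACS against input reads and deposited a score, 10 times the negative log10 of the p-value. The input library was not analysed here. The deposited scores were 50 or more, and all sites were called on 1 library.

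Transcripts were joined by identifier and FPKM was summed by gene symbol with a pseudocount of 1, a minimum FPKM of 1 in at least 1 library and a threshold of 1.5-fold, so that fold changes of low genes are understated on the log2 scale. A gene with a failed estimate in a library (8 genes) was treated as not measured. The coverage deposited by the authors was turned into read equivalents (coverage times length over 50 nt) to express depth, because FPKM carries no read counts. Reads of similar transcripts are divided by Cufflinks, so the split between isoforms is an estimate. Multi-mapping reads are missing, which lowers genes with near copies. Annotation of sites used GENCODE release 44 lifted to GRCh37 (hg19), and 11178 of 11181 sites lay on its chromosomes. Motifs were searched in 300 bases around the midpoint of a site on both strands, in equal windows 5 kb away, and in RefSeq promoters.

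The genes, the lists and the thresholds were chosen with earlier results of these data known. The list of regulators held 1 more gene when it was chosen. That gene is not reported here, and the list and its counts are given for the other genes. Named were all 10 genes with their transcripts and sites, all retained regulators and partners, and the 5 largest rises and 5 largest falls past 1.5-fold among the other targets. Targets past 1.5-fold that passed the filter through 1 library alone were named as well. Printed sites are those with the highest scores among genes past 1.5-fold, and the RET site was added after its values were seen. Alternatives were a pseudocount of 0.1, the highest transcript of a gene in each library, rescaled FPKM, interval midpoints, other filters, thresholds, distances and windows. The script was tested on simulated data. Python 3.11.15, pandas 2.3.3, numpy 2.4.6, scipy 1.17.1, pysam 0.24.0 and matplotlib 3.10.9 were used.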

Additional observations from a re-analysis of the deposited data

How the results depend on the processing

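Log2 differences of the 10 genes and their detected transcripts were recomputed with 1 choice changed at a time. So were the counts past the threshold among the 10 genes, the other targets and all retained genes. Counts of genes with a site and of motif matches at the sites of the set were also recomputed. No log2 difference changed sign, which a change of pseudocount could not bring about in any case. Counts have no sign to change. The lists of regulators and partners, the site shares by direction of change, the numbers of sites per gene and the promoter matches were not recomputed. Of 61 alternative values of counts and medians, 49 stayed within 1.5 times the reported value, a wide limit for small counts: the genes of the set that were higher, 3, ranged from 2 to 4. The median log2 difference of the 10 genes, 0.35, was 0.55 with a pseudocount of 0.1 and 0.62 with no pseudocount, a choice added after seeing the data. The count of genes of the set that were lower, 2, was 1 with interval midpoints, with a threshold of 2-fold and with a minimum FPKM of 5. At 2-fold the other targets gave 14 higher and 1 lower, and all retained genes gave 375 higher and 139 lower. The retained genes that were lower numbered 782 with a pseudocount of 0.1 and 262 with a minimum FPKM of 5, and 3630 retained genes had a site within 10 kb. Among single genes, 43 of 50 alternative values kept their side of the threshold, and so did 23 of 28 for transcripts, while 8 of 13 motif counts stayed within 1.5 times. Rescaling multiplied the R5020 values by 0.992. No paired analysis was possible because there is 1 library per condition, and no replicate could be left out. Depth limits TFF1, RET, PDZK1 and SUSD3, which had at most 289 read equivalents in either library.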
